A study of Mus musculus with 12 samples.

Results

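Metallothioneins and zinc handling were represented by 5 genes: the metallothioneins Mt1 and Mt2, the zinc-sensing transcription factor Mtf1, the zinc exporter Slc30a1 and the zinc importer Slc39a14. They were 5 of the 52355 genes obtained by summing the transcript table, and all 5 were among the 23729 genes that passed the filter on low counts. The set was chosen for the rise of Mt2 with the agonist, so the values of the 5 genes in contrasts that include agonist-treated libraries are given as descriptions, without a test. RNA sequencing of CD11c cells from mouse inguinal lymph nodes gave 12 libraries in 3 groups of 4. TdLN_CD40 was the node draining a subcutaneous KPC tumor in animals given a CD40 agonist, TdLN was the tumor-draining node without the agonist, and Healthy_iLN was the inguinal node of animals with neither tumor nor agonist. KPC denotes a mouse pancreatic tumor model, and CD11c is the integrin, encoded by Itgax, by which dendritic cells are commonly isolated. Strain, age, agonist dose and interval are not given in the labels, which also do not state whether each library is a different animal. Each p-value below is therefore relative to the spread among the deposited libraries, which may be technical. Libraries of the 3 groups share a numeric title prefix, and prefixes are numbered here as replicates 1 to 4.

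Metallothioneins are small cysteine-rich proteins that bind zinc and copper and can release zinc on oxidation. MTF-1, the product of Mtf1, is activated by zinc and binds metal response elements in the promoters of Mt1, Mt2 and Slc30a1, so that a rise in free zinc increases both its storage and its export. Slc30a1 (ZnT1) carries zinc out across the plasma membrane, and Slc39a14 (ZIP14) brings zinc, iron and manganese into the cell. In mouse dendritic cells, maturation by microbial signals is known to change the expression of zinc transporters.

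Mt1 lies on chromosome 8 at 94179082 to 94180327 and Mt2 next to it at 94172664 to 94173568, both on the plus strand of GRCm38. Mtf1 lies on chromosome 4 at 124802104 to 124849800 on the plus strand, Slc30a1 on chromosome 1 at 191906767 to 191913247 on the plus strand, and Slc39a14 on chromosome 14 at 70303469 to 70351425 on the minus strand. RefSeq promoters (GRCm38.p6) were matched by symbol for 4 of the 5 genes, as 300 bases that run from 250 bases before the annotated start. The 3 promoters below are shown because they contain the core of the metal response element, TGCACNC or TGCGCNC on either strand, which is printed in capitals. They are chr8:94178839-94179138 for Mt1, chr8:94172368-94172667 for Mt2 and chr1:191906531-191906830 for Slc30a1, each on the plus strand.
Mt1: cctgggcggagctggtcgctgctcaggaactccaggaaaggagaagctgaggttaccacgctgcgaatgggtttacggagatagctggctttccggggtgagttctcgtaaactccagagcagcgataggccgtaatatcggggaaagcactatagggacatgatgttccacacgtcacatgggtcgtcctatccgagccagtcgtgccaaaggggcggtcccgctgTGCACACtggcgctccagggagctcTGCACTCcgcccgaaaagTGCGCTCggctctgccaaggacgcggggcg
Mt2: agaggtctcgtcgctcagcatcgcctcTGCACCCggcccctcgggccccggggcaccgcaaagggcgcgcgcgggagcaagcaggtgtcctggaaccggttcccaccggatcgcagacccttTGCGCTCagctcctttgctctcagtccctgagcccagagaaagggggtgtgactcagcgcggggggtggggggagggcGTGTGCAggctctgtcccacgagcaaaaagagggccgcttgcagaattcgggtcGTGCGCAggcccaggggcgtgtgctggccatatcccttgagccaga
Slc30a1: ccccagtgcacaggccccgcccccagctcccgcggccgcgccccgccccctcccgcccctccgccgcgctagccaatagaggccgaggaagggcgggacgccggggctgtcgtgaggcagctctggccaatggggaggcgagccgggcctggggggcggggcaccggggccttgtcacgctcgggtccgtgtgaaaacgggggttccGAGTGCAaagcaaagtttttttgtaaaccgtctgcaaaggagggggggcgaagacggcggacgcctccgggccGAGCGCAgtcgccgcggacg

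With the annotated start of the RefSeq promoter counted as 0, the first bases of the cores stood at -23, 2 and 20 in Mt1, at -223, -128, -50 and 4 in Mt2, and at -43 and 30 in Slc30a1. This start is not the gene start given above. For Mt2 the gene start, 94172664, lies near the end of the window, at 94172667. The window of Mtf1, chr4:124802299-124802598, held none of these letters. It lies wholly inside the gene interval given above, so it does not describe the bases before that gene start. Of the 32851 mouse promoters of the same length, 25.7% held at least 1 such core, 7.11% at least 2, 1.97% at least 3 and 0.52% at least 4. The antioxidant response core TGACNNNGC, searched on both strands, was found once in Mt2, at -79, and once in Slc30a1, at -82, and in 12.4% of all promoters. The STAT site TTCNNNGAA, in 8.3% of promoters, and the E-box CACGTG, in 7.2%, were found in none of the 4 windows. No 2 matches of different motifs overlapped. These matches describe letters in a window and are not evidence of binding in these cells.

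**Figure D1:**
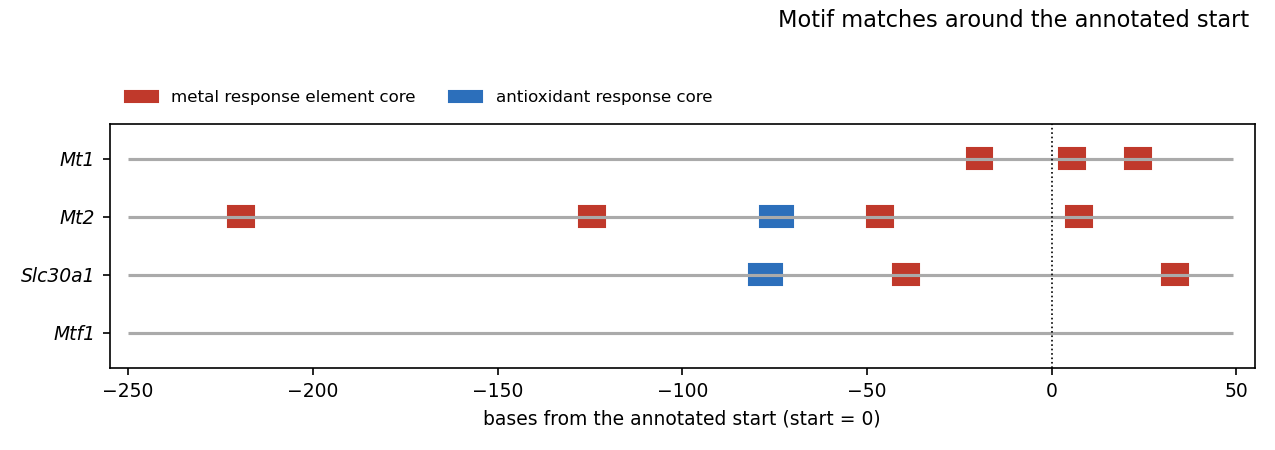
Positions of motif matches in the 300-base RefSeq promoters of Mt1, Mt2, Slc30a1 and Mtf1, in bases from the annotated start (x axis, start at 0). Red blocks are metal response element cores (3, 4, 2 and 0 matches) and blue blocks are antioxidant response cores (1 each in Mt2 and Slc30a1).

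Gene counts totalled 32578457 to 56242933 per library, and replicates 1 and 2 had a higher share of mitochondrial RNA (2.59 to 4.75%) than replicates 3 and 4 (1.23 to 2.21%) in all 3 groups. All 12 dendritic cell markers listed were detected, and Itgax averaged 731 ± 130 CPM (counts scaled to library size) in TdLN_CD40, 968 ± 188 CPM in TdLN and 832 ± 209 CPM in Healthy_iLN (SD, n = 4 each). Over all genes tested, 2.68% were called in TdLN_CD40 against TdLN (635 genes) and 6.28% in TdLN_CD40 against Healthy_iLN (1490 genes), at a Benjamini-Hochberg adjusted p below 0.05 in either direction. With the title prefix as a block these shares were 13.3% and 20.1%. Markers of other cells were present too: with the agonist, 4 of 11 monocyte and macrophage markers were called higher than in TdLN (among them Cd5l, Siglec1 and Marco) and Ccr2 was called lower; Marco was named after its values were seen. In the same comparison 1 of 6 natural killer cell markers was called higher and 1 lower, and none was called of 8 neutrophil, 8 T cell, 8 B and plasma cell, 12 stromal and endothelial, and 5 keratinocyte and Langerhans cell markers tested. With the block these became 4 higher and 2 lower of the monocyte and macrophage markers, 3 higher and 1 lower of the natural killer cell markers, 1 higher of the B and plasma cell markers and 1 lower of the keratinocyte and Langerhans cell markers. In TdLN against Healthy_iLN, where 0.198% of all genes were called (47 genes) and 6.3% with the block (1495 genes), 1 neutrophil marker and 2 B and plasma cell markers were called higher. With the block 5 of 8 neutrophil, 3 of 8 B and plasma cell and 1 of 12 dendritic cell markers were called higher there, 1 of 8 T cell markers was higher and 3 lower, and 2 of 11 monocyte and macrophage markers were higher and 1 lower.

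Both metallothioneins were higher in every agonist-treated library than in any other library. Mt1 had 95.3, 74.8, 84.7 and 113 CPM in the 4 TdLN_CD40 libraries, 31.9, 19.9, 29.7 and 26.6 CPM in the TdLN libraries and 28.3, 35.4, 20.1 and 22.5 CPM in the Healthy_iLN libraries. The agonist group stood clear of both others, while the ranges of TdLN and Healthy_iLN overlapped. Mt2 had 31.7, 26.2, 24.5 and 35.1 CPM in TdLN_CD40, 4.39, 3.47, 6.98 and 3.96 CPM in TdLN and 5.74, 6.97, 3.801 and 3.92 CPM in Healthy_iLN. The lowest agonist-treated library of Mt2 thus lay well above TdLN replicate 3, the highest of the TdLN libraries, and the ranges of TdLN and Healthy_iLN again overlapped.

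Fitted across all genes with edgeR, TdLN_CD40 over TdLN gave a log2 fold change of 1.76 ± 0.20 (SE) for Mt1, a fold of 3.40, and of 2.64 ± 0.25 for Mt2, a fold of 6.24. Within the title prefixes, the difference in log2 CPM between TdLN_CD40 and TdLN ranged over 1.51 to 2.08 for Mt1 and over 1.80 to 3.13 for Mt2, higher in 4 of 4 pairs for each. Against Healthy_iLN, the log2 fold changes of TdLN_CD40 were 1.79 ± 0.20 for Mt1 and 2.52 ± 0.25 for Mt2. These 2 contrasts share the agonist-treated libraries. Of all genes tested, 2.68% were called in the first contrast and 6.28% in the second, as above, and since the 5 genes were chosen on the first, nothing is read from these shares. In bulk RNA of CD11c cells, a change in the proportion of a cell type and a change in RNA per cell cannot be told apart.

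Markers of monocytes and macrophages moved in both directions beside the metallothioneins, 4 higher, 1 lower and 6 not called of 11. Siglec1, a sialic acid-binding receptor of node macrophages, had 137, 116, 270 and 153 CPM in TdLN_CD40, 35.8, 43.8, 50.3 and 54.6 CPM in TdLN, and 38.8, 44.6, 42.2 and 52.8 CPM in Healthy_iLN. Ccr2, a chemokine receptor of monocytes, averaged 132 ± 11.1 CPM in TdLN_CD40, 363 ± 64.5 CPM in TdLN and 390 ± 78.4 CPM in Healthy_iLN, with a log2 fold change of TdLN_CD40 over TdLN of -1.46 ± 0.17 (adjusted p = 0.000761). Adgre1 (F4/80), named after its values were seen, averaged 97.6 ± 6.82 CPM in TdLN_CD40, 150 ± 25.1 CPM in TdLN and 155 ± 33.9 CPM in Healthy_iLN (adjusted p = 0.0680 against TdLN; 0.00240 with the block). TdLN_CD40 replicate 3 was highest for Siglec1 and lowest for Mt2 within its group, whereas Mt1 was lowest in replicate 2. The summed level of the 11 monocyte and macrophage markers was 1218 to 1884 CPM in TdLN_CD40, 1135 to 1764 CPM in TdLN and 1111 to 1615 CPM in Healthy_iLN, so the groups overlapped. Csf1r, named after its values were seen, had 569, 503, 803 and 855 CPM in TdLN_CD40. The sum can therefore hide rises of less abundant markers such as Siglec1. The 12 stromal and endothelial markers summed to 105 to 284 CPM in TdLN_CD40, 127 to 209 CPM in TdLN and 151 to 204 CPM in Healthy_iLN, with none of the 12 called. Among the 12 dendritic cell markers, 1 was called higher in TdLN_CD40 than in TdLN and 3 lower (3 and 7 with the prefix block), and the sums were 4576 to 6940 CPM in TdLN_CD40, 4433 to 6220 CPM in TdLN and 4268 to 5378 CPM in Healthy_iLN. No defining marker of these 3 lists was at 0 in all libraries. The part of these cells in the metallothionein levels was not tested.

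**Figure D2:**
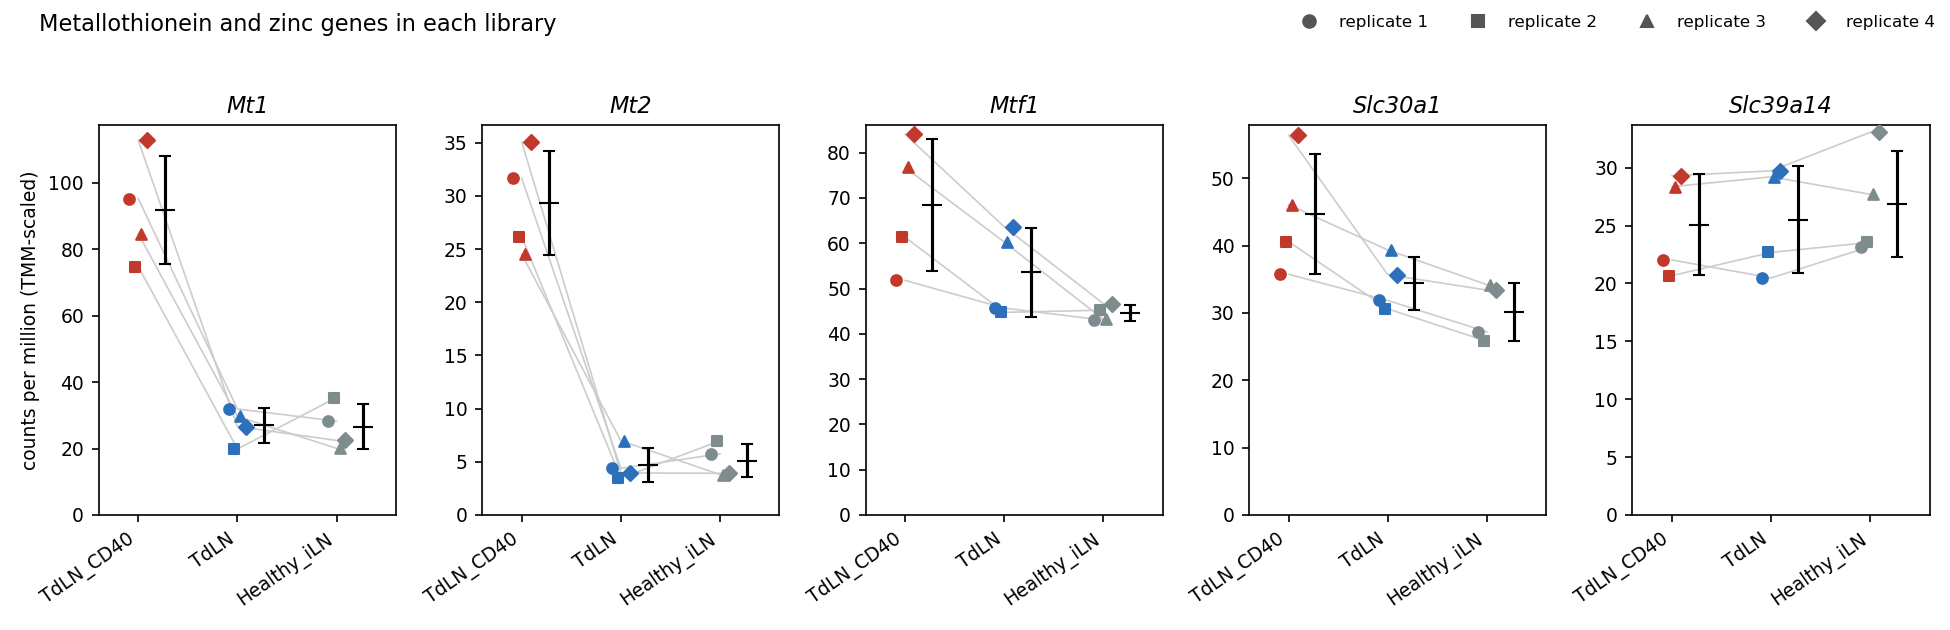
TMM-scaled CPM (y axis, from 0) of the 5 genes in each library of TdLN_CD40, TdLN and Healthy_iLN (x axis), with 1 symbol per replicate, grey lines joining libraries of the same title prefix and black bars for mean ± SD (n = 4). The TdLN_CD40 libraries of Mt1 (74.8 to 113 CPM) and Mt2 (24.5 to 35.1 CPM) lie above all others, whereas the groups of Slc39a14 overlap.

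Levels per length, in TPM (counts scaled for transcript length and depth), allow the genes to be ranked. Mt1 averaged 182 ± 40.1 TPM in TdLN_CD40, 53.6 ± 7.46 TPM in TdLN and 55.7 ± 19.0 TPM in Healthy_iLN (SD, n = 4 each). Mt2 averaged 104 ± 21.2 TPM in TdLN_CD40, 18.5 ± 6.52 TPM in TdLN and 20.0 ± 9.08 TPM in Healthy_iLN. The mean of Mt1 lay at the 97.4 percentile of the genes tested in TdLN_CD40, the 90.5 percentile in TdLN and the 91.1 percentile in Healthy_iLN, and that of Mt2 at the 95.3, 76.3 and 77.8 percentiles of the same groups. Mt1 exceeded Mt2 in every library, with no overlap of their ranges within any group. In TdLN_CD40 and TdLN, the range of Mt2 also lay above those of the other 3 genes, and in Healthy_iLN it overlapped with that of Slc39a14.

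Mt2 differed from the untreated groups by a larger factor than Mt1, which is visible as a ratio within each library. Since the set was chosen for the rise of Mt2 with the agonist, this larger factor and the ratio are descriptions from which nothing is read. Mt2 TPM divided by Mt1 TPM was 0.627, 0.656, 0.481 and 0.540 in TdLN_CD40, 0.286, 0.376, 0.4495 and 0.256 in TdLN, and 0.399, 0.389, 0.3002 and 0.310 in Healthy_iLN. All 4 agonist-treated libraries lay above the other 8, with TdLN_CD40 replicate 3 (0.481) closest to TdLN replicate 3 (0.4495). Mt2 made up 36.4 ± 3.27% of the summed TPM of the pair in TdLN_CD40, 25.2 ± 4.84% in TdLN and 25.8 ± 2.84% in Healthy_iLN. The sum itself was 286 ± 58.7 TPM in TdLN_CD40, 72.1 ± 12.9 TPM in TdLN and 75.7 ± 28.0 TPM in Healthy_iLN. The pair are paralogs, and estimated counts divide reads between similar transcripts, so the ratio depends on that division.

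**Figure D3:**
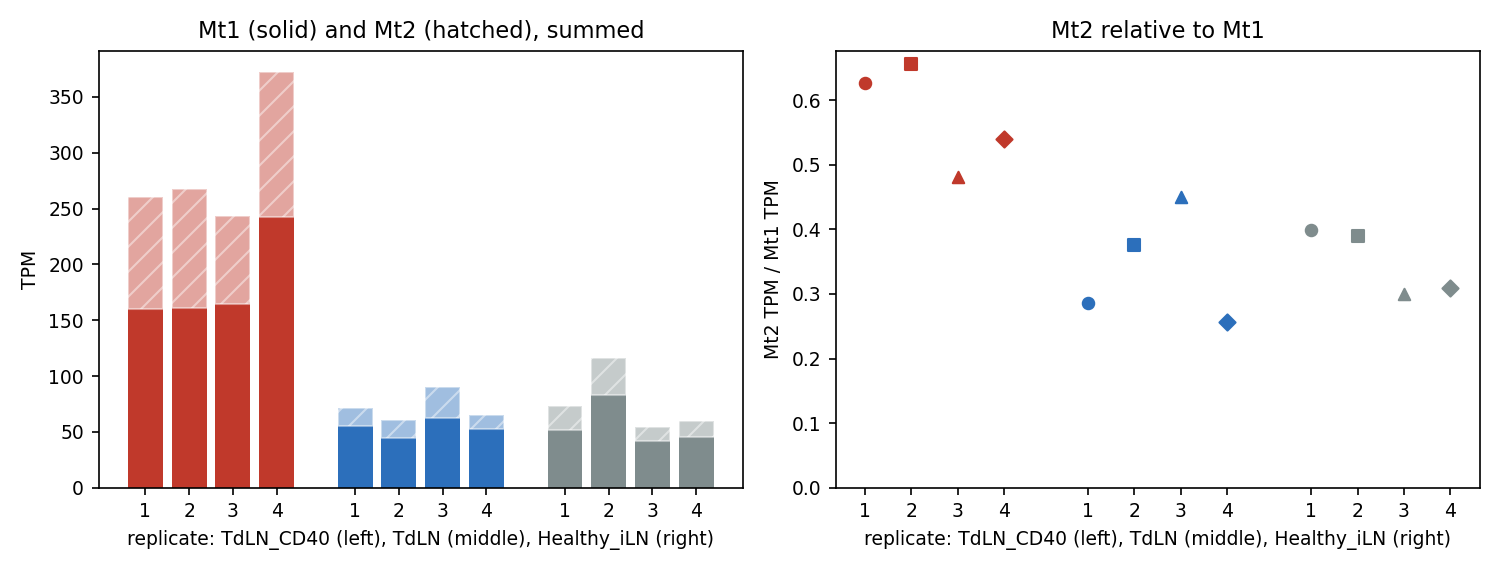
Left, TPM of Mt1 (solid) and Mt2 (hatched), stacked, in each library of TdLN_CD40 (red), TdLN (blue) and Healthy_iLN (grey); right, Mt2 TPM divided by Mt1 TPM in the same libraries (x axes, replicate). The summed TPM of the agonist-treated libraries (243 to 373) exceeds that of the others (54.2 to 116), and so does the ratio (0.481 to 0.656, against 0.256 to 0.4495).

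At the level of transcripts, the 3-exon model Mt1-201 held 95.6 ± 2.65% of the counts of Mt1 in TdLN_CD40, 91.3 ± 6.66% in TdLN and 91.1 ± 4.44% in Healthy_iLN. For Mt2, the counts were divided between 2 models of 3 exons, Mt2-201 of 511 bases and Mt2-202 of 388 bases. Mt2-201 held 42.0 to 61.7% of Mt2 counts in the TdLN_CD40 libraries, 19.6 to 56.2% in TdLN and 36.0 to 67.0% in Healthy_iLN. The ranges of the 3 groups overlapped, and both models were higher with the agonist: Mt2-201 averaged 36.1 ± 9.58 TPM in TdLN_CD40, 4.50 ± 2.23 TPM in TdLN and 6.27 ± 0.768 TPM in Healthy_iLN, and Mt2-202 averaged 67.8 ± 16.9 TPM in TdLN_CD40, 14.0 ± 5.40 TPM in TdLN and 13.7 ± 8.504 TPM in Healthy_iLN.

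Mtf1, the zinc sensor, was higher with the agonist in each title prefix and also varied between prefixes. It had 51.8, 61.3, 76.7 and 84.0 CPM in TdLN_CD40, 45.7, 44.7, 60.3 and 63.6 CPM in TdLN, and 43.0, 45.2, 43.2 and 46.7 CPM in Healthy_iLN. The agonist and TdLN ranges overlapped, the agonist and healthy ranges did not, and replicates 3 and 4 were the highest in both tumor groups. The log2 fold change of TdLN_CD40 over TdLN was 0.35 ± 0.16 (SE), and within prefixes TdLN_CD40 was higher in 4 of 4 pairs, by 0.18 to 0.45 on the log2 scale. Against Healthy_iLN, the log2 fold change of TdLN_CD40 was 0.62 ± 0.16. Its mean level per length was 13.8 ± 1.29 TPM in TdLN_CD40, 10.9 ± 1.52 TPM in TdLN and 9.29 ± 1.52 TPM in Healthy_iLN.

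Slc30a1, the zinc exporter of the plasma membrane, followed a similar graded order. It had 35.7, 40.6, 46.1 and 56.4 CPM in TdLN_CD40, 31.9, 30.6, 39.4 and 35.7 CPM in TdLN, and 27.2, 25.8, 34.2 and 33.4 CPM in Healthy_iLN. TdLN_CD40 overlapped with TdLN but not with Healthy_iLN, and the lowest agonist-treated library was replicate 1. The log2 fold change of TdLN_CD40 was 0.38 ± 0.15 (SE) over TdLN and 0.57 ± 0.15 over Healthy_iLN. Within prefixes TdLN_CD40 was higher than TdLN in 4 of 4 pairs, by 0.17 to 0.66 on the log2 scale. Slc30a1 had the lowest mean TPM of the 5 genes in each group: 7.50 ± 2.81 TPM in TdLN_CD40, 5.64 ± 0.528 TPM in TdLN and 5.10 ± 0.510 TPM in Healthy_iLN. In TdLN_CD40 its range overlapped with that of Slc39a14, its neighbour in this order, and in the other 2 groups its range lay below those of the other 4 genes.

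Slc39a14, the importer, did not separate by group, and its levels went with the title prefix. It had 22.0, 20.7, 28.4 and 29.3 CPM in TdLN_CD40, 20.5, 22.7, 29.2 and 29.7 CPM in TdLN, and 23.2, 23.6, 27.7 and 33.1 CPM in Healthy_iLN. The 3 groups overlapped almost fully, and in each of them replicates 3 and 4 were the 2 highest. The log2 fold change of TdLN_CD40 was -0.02 ± 0.17 (SE) over TdLN and -0.10 ± 0.17 over Healthy_iLN, and TdLN_CD40 was higher than TdLN in 1 of 4 pairs. On the TPM scale the sign turned: the log2 fold change of TdLN_CD40 over TdLN was 0.24 with a pseudocount of 1. The mean level was 11.1 ± 2.09 TPM in TdLN_CD40, 9.10 ± 0.688 TPM in TdLN and 10.7 ± 1.48 TPM in Healthy_iLN. The 10-exon model Slc39a14-202, with a mean of 80.0 to 85.2% of the counts by group, averaged 2.97 ± 0.814 TPM in TdLN_CD40, 3.26 ± 0.719 TPM in TdLN and 3.40 ± 0.649 TPM in Healthy_iLN. The other 12 models summed to 8.09 ± 1.41 TPM in TdLN_CD40, 5.85 ± 1.15 TPM in TdLN and 7.28 ± 1.05 TPM in Healthy_iLN, so the TPM of the gene was set mostly by models with few counts. In each group the TPM range of Slc39a14 overlapped with that of Mtf1.

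A division of the sum of squares of log2 CPM over the 12 libraries describes these patterns. Group took 90.9% for Mt1, 93.4% for Mt2, 58.1% for Mtf1, 59.1% for Slc30a1 and 3.7% for Slc39a14. The title prefix took 1.3% for Mt1, 0.3% for Mt2, 28.9% for Mtf1, 33.1% for Slc30a1 and 90.7% for Slc39a14. The mean of replicates 3 and 4 exceeded that of replicates 1 and 2 by 0.33 for Mtf1, 0.34 for Slc30a1 and 0.42 for Slc39a14 in log2 CPM, and the same difference was -0.07 for Mt1 and -0.09 for Mt2. Replicates 3 and 4 were also the ones with the lower mitochondrial share given above, and its part in these differences was not tested.

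**Figure D4:**
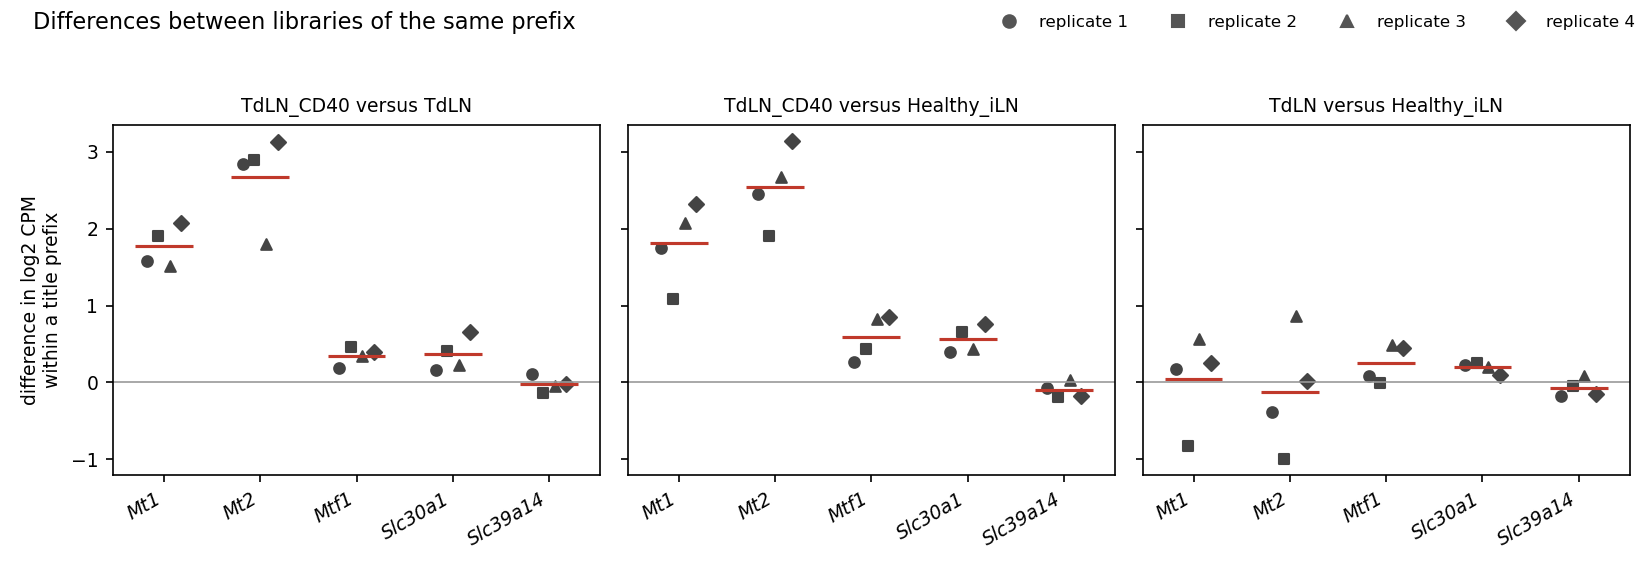
Difference in log2 CPM (y axis) between libraries of the same title prefix for the 5 genes (x axis) in TdLN_CD40 versus TdLN, TdLN_CD40 versus Healthy_iLN and TdLN versus Healthy_iLN, with 1 symbol per replicate and a red line at the mean. For TdLN_CD40 versus TdLN the 4 pairs of Mt2 lie at 1.80 to 3.13, and for TdLN versus Healthy_iLN the pairs of Mt1 and Mt2 lie on both sides of 0.

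The comparison of TdLN with Healthy_iLN asked whether a draining tumor alone was accompanied by a difference, and none of the 5 genes passed the test. The log2 fold changes of TdLN over Healthy_iLN with edgeR's quasi-likelihood test were 0.03 ± 0.20 (SE, adjusted p = 0.973) for Mt1 and -0.12 ± 0.24 (adjusted p = 0.908) for Mt2. They were 0.27 ± 0.16 (adjusted p = 0.737) for Mtf1, 0.19 ± 0.15 (adjusted p = 0.799) for Slc30a1 and -0.07 ± 0.17 (adjusted p = 0.915) for Slc39a14. With the block the adjusted p was 0.150 for Mtf1 and 0.173 for Slc30a1, and Slc30a1 was higher in TdLN in 4 of 4 pairs, by 0.10 to 0.25 on the log2 scale. Mt1 was higher in TdLN than in Healthy_iLN in 3 of 4 pairs and Mt2 in 2 of 4, and a p that misses the threshold does not show that the groups were alike.

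Other genes of zinc handling were examined from lists of the whole families. The brain metallothionein Mt3 had at most 0.406 TPM in any library and Mt4, an epithelial metallothionein, was at 0 in all 12; neither passed the filter. Of 22 further Slc30 and Slc39 zinc transporters, 19 were tested. In TdLN_CD40 against TdLN none was called higher, 1 was called lower and 18 did not pass the test. This was 5.3% called, beside 2.68% of all genes tested. The median log2 fold change of the 19 was -0.06, beside 0.02 over all genes tested. With the prefix as a block 4 were called lower, where 13.3% of all genes were called in either direction. These 4 were Slc39a10, Slc30a5, Slc39a6 and Slc39a11, the last 2 being named after their values were seen. In a list this short, few calls also arise at the share over all genes.

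The transporter that fell was Slc39a10 (ZIP10), a plasma membrane zinc importer whose transcription MTF-1 is known to repress. It had 29.2, 27.5, 27.9 and 26.9 CPM in TdLN_CD40, 44.3, 34.9, 52.0 and 52.8 CPM in TdLN, and 44.1, 36.3, 55.95 and 46.0 CPM in Healthy_iLN. All agonist-treated libraries lay below all others. The log2 fold change of TdLN_CD40 was -0.72 ± 0.15 (SE, adjusted p = 0.0216; 0.00102 with the prefix block) over TdLN and -0.71 ± 0.15 (adjusted p = 0.0119) over Healthy_iLN. Leaving out TdLN_CD40 replicate 2, 3 or 4, or TdLN replicate 3 or 4, moved its adjusted p against TdLN to 0.0545, 0.0617, 0.0609, 0.0656 and 0.0662, with log2 fold changes of -0.72, -0.73, -0.72, -0.66 and -0.67. With limma on log2(TPM + 1) and log2(TPM + 0.1) the adjusted p was 0.0555 and 0.0566.

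Among the transporters with the highest level per length, the Golgi zinc transporter Slc30a5 averaged 68.7 ± 3.35 CPM in TdLN_CD40, 90.3 ± 16.7 CPM in TdLN and 77.5 ± 13.5 CPM in Healthy_iLN. Its log2 fold change of TdLN_CD40 over TdLN was -0.39 ± 0.15 (adjusted p = 0.242; 0.00864 with the block). The log2 fold change of TdLN_CD40 over TdLN was 0.12 ± 0.11 (adjusted p = 0.797) for Slc30a7, another transporter of the secretory pathway, and 0.09 ± 0.11 (adjusted p = 0.879) for Slc30a9. It was 0.12 ± 0.16 (adjusted p = 0.892) for the plasma membrane importer Slc39a1, -0.15 ± 0.21 (adjusted p = 0.894) for Slc39a7, which releases zinc from the endoplasmic reticulum, and -0.06 ± 0.14 (adjusted p = 0.944) for Slc39a13. None of these 6 transporters passed the test without the block.

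Against Healthy_iLN, TdLN_CD40 had 1 of the 19 transporters called higher and 1 lower (10.5%, beside 6.28% of all genes tested). With the block 2 were higher and 2 lower, where 20.1% of all genes were called. The 2 higher with the block were Slc39a1 (log2 fold change 0.49 ± 0.16, adjusted p = 0.0991 without it and 0.00276 with it) and Slc30a7 (0.28 ± 0.11, 0.195 and 0.0212). The 2 lower were Slc39a10 and Slc39a11. Without the block the higher one was the importer Slc39a4. It had 12.1, 2.73, 3.23 and 3.76 CPM in TdLN_CD40, 1.88, 1.60, 6.63 and 2.36 CPM in TdLN, and 1.15, 1.32, 1.57 and 1.27 CPM in Healthy_iLN. Its mean in TdLN_CD40 was drawn up by replicate 1, and the log2 fold change over Healthy_iLN was 2.03 ± 0.53 (SE, adjusted p = 0.0328; 0.0583 with the block). The call was lost without TdLN_CD40 replicate 1 or any single Healthy_iLN library, the log2 fold change without TdLN_CD40 replicate 1 being 1.28 (adjusted p = 0.124) and the adjusted p without a Healthy_iLN library 0.0799 to 0.0972. With limma on log2(TPM + 1) and log2(TPM + 0.1) the adjusted p was 0.168 and 0.101, the log2 fold change 0.78 and 1.48. In TdLN against Healthy_iLN none of the 19 was called with edgeR or DESeq2, 2 had an unadjusted p below 0.05, and with the block Slc39a1 and Slc39a6 were called higher (adjusted p = 0.0367 and 0.0307). Over all genes tested, 0.198% were called there without the block and 6.3% with it.

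**Figure D5:**
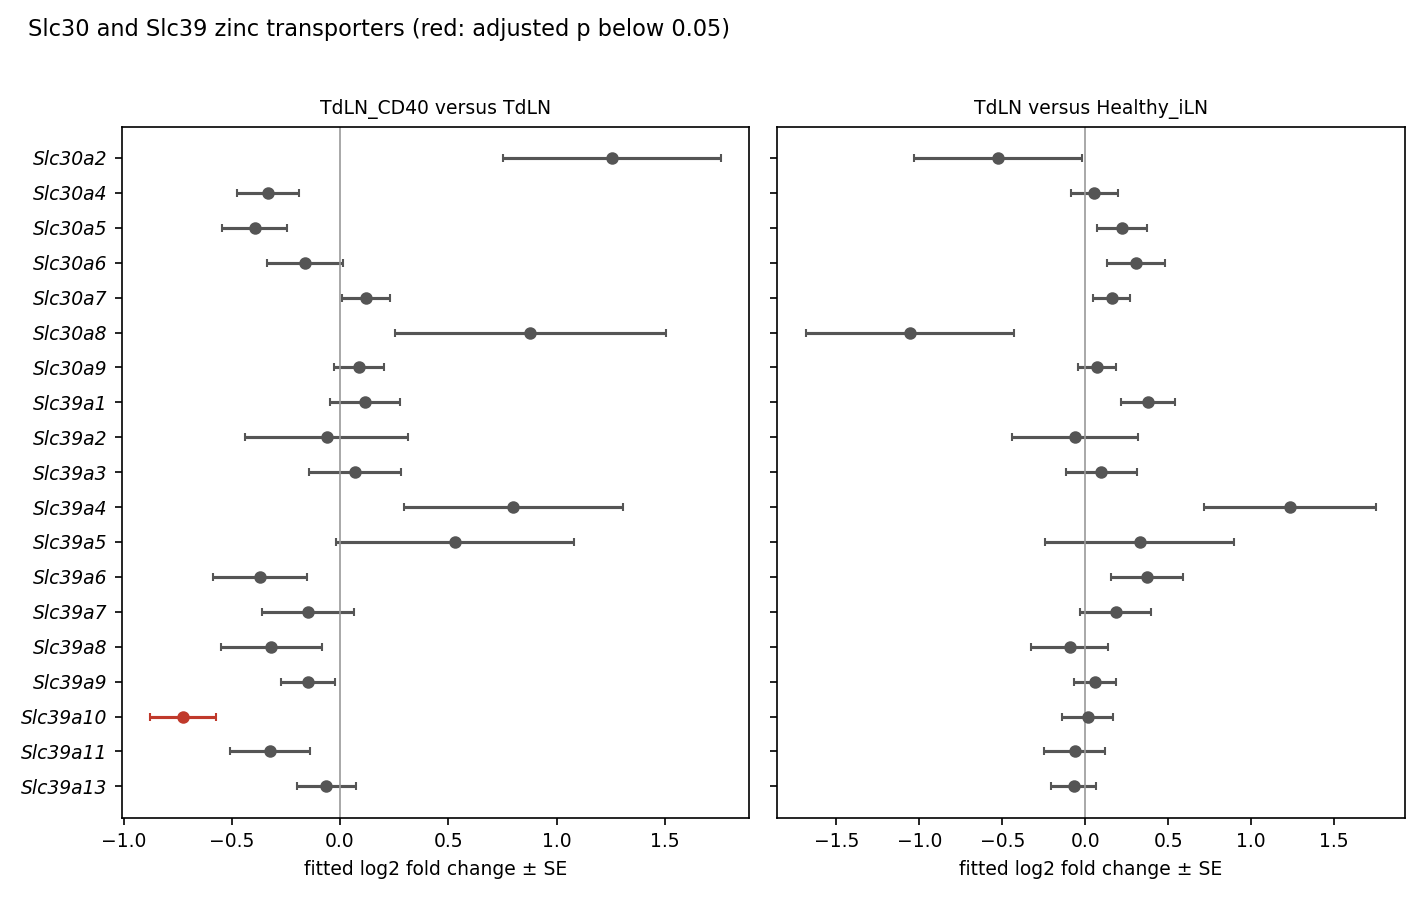
Fitted log2 fold change ± SE (x axis, n = 4 libraries per group) of the 19 tested Slc30 and Slc39 transporters other than Slc30a1 and Slc39a14 (y axis), in TdLN_CD40 versus TdLN (left) and TdLN versus Healthy_iLN (right). Red marks genes with an adjusted p below 0.05, which is Slc39a10 in TdLN_CD40 versus TdLN and no gene in TdLN versus Healthy_iLN.

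Further reported MTF-1 targets moved with the agonist in both directions. Of 7 tested, 4 rose in TdLN_CD40 against TdLN, Ndrg1, Slc40a1, Csrp1 and Selenow, and Slc39a10 fell; the counts were the same with the prefix block, and in TdLN against Healthy_iLN none was called. Selenow was named after its values were seen. Ndrg1, a stress-inducible gene, had 192, 166, 146 and 200 CPM in TdLN_CD40, 80.8, 82.2, 99.4 and 97.6 CPM in TdLN, and 72.5, 85.5, 69.5 and 65.5 CPM in Healthy_iLN. All agonist-treated libraries lay above all others, with a log2 fold change over TdLN of 0.97 ± 0.14 (adjusted p = 0.00228). Slc40a1 (ferroportin), the iron exporter, had 40.4, 27.2, 35.3 and 38.0 CPM in TdLN_CD40, 16.0, 11.8, 20.6 and 6.84 CPM in TdLN, and 15.5, 12.01, 10.3 and 11.9 CPM in Healthy_iLN. Its log2 fold change over TdLN was 1.35 ± 0.26 (adjusted p = 0.0129), without TdLN replicate 2 it was 1.28 (adjusted p = 0.0515), and on log2(TPM + 1) and log2(TPM + 0.1) it was 1.01 and 1.04 (limma, adjusted p = 0.203 and 0.213). Csrp1, which encodes a LIM domain protein, averaged 279 ± 32.2 CPM in TdLN_CD40, 190 ± 12.1 CPM in TdLN and 158 ± 19.2 CPM in Healthy_iLN, with a log2 fold change over TdLN of 0.55 ± 0.13 (adjusted p = 0.0364). Selenow, a selenoprotein gene, gave 0.61 ± 0.15 (adjusted p = 0.0398). The calls of Csrp1 and Selenow were lost in 10 and 9 of the 12 fits that left out 1 library, over which the highest adjusted p was 0.110 and 0.142. Both calls were also lost with RLE size factors, with no count filter and with both TPM settings, and that of Csrp1 with only the 2 groups compared. Over the fits that left out 1 library, Csrp1 kept its call without Healthy_iLN replicate 2 or 4, and Selenow without these or TdLN_CD40 replicate 2. The median log2 fold change of the 7 was 0.55, beside 0.02 over all genes. Of all genes tested, 2.68% were called in TdLN_CD40 against TdLN, and 13.3% with the block.

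Part of the iron handling list rose with the agonist. Of 14 tested, 5 rose in TdLN_CD40 against TdLN (Cp, Hmox1, Slc11a1, Fth1 and Slc40a1) and none fell, with a median log2 fold change of 0.47 beside 0.02 over all genes tested; with the prefix block 8 were called higher and 1 lower. Cp (ceruloplasmin), a copper-carrying ferroxidase, had 89.1, 72.1, 112 and 90.6 CPM in TdLN_CD40, 31.7, 38.2, 46.3 and 40.4 CPM in TdLN, and 35.6, 29.96, 29.0 and 25.7 CPM in Healthy_iLN. The agonist-treated libraries did not overlap with either group, and the log2 fold change over TdLN was 1.22 ± 0.16 (adjusted p = 0.00144). Slc11a1 (NRAMP1), a phagosomal metal transporter, gave 0.94 ± 0.17 (adjusted p = 0.00938), and Fth1, the ferritin heavy chain, gave 0.90 ± 0.17 (adjusted p = 0.0113). Without TdLN replicate 2, the adjusted p of Fth1 was 0.0508. With limma on log2(TPM + 1) and log2(TPM + 0.1) that of Slc11a1 was 0.0616 and 0.0628, and with the smaller pseudocount that of Cp was 0.0512. Of all genes tested, 2.68% were called in TdLN_CD40 against TdLN, and 13.3% with the block. None of the 14 was called in TdLN against Healthy_iLN.

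Targets of the oxidative stress factor NRF2 rose in part. Of 12 tested, 4 rose in TdLN_CD40 against TdLN (Hmox1, Srxn1, Txn1 and Slc7a11) and none fell, with a median log2 fold change of 0.41 beside 0.02; with the prefix block 7 were called higher. Hmox1, which encodes heme oxygenase 1 and also stands in the iron list, had 98.2, 84.6, 196 and 100 CPM in TdLN_CD40, 43.1, 29.1, 43.2 and 40.2 CPM in TdLN, and 32.9, 35.2, 30.6 and 39.5 CPM in Healthy_iLN. TdLN_CD40 replicate 3, the highest for Siglec1, was also the highest for Hmox1. The log2 fold change of Hmox1 over TdLN was 1.62 ± 0.23 (adjusted p = 0.00244). Srxn1 (sulfiredoxin) gave 0.85 ± 0.14 (adjusted p = 0.00567) and Txn1 (thioredoxin) gave 0.71 ± 0.12 (adjusted p = 0.00607). Slc7a11, the cystine importer, was named after its values were seen and gave 0.89 ± 0.17 (adjusted p = 0.0129), which became 0.0535 and 0.0526 without TdLN replicate 2 or 4. With limma on log2(TPM + 1) and log2(TPM + 0.1) the adjusted p of Srxn1 was 0.0970 and 0.0966. The other 8 did not pass the test without the block. Of all genes tested, 2.68% were called in TdLN_CD40 against TdLN, and 13.3% with the block. In TdLN against Healthy_iLN none of the 12 was called without the block, and with it Gsr (glutathione reductase), named after its values were seen, was called higher (unblocked log2 fold change 0.76 ± 0.18, adjusted p = 0.127; 0.00272 with the block; higher in 4 of 4 pairs).

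Lists of 4 other influences on metallothionein expression or metal binding were counted in TdLN_CD40 against TdLN, where 2.68% of all genes tested were called (13.3% with the block). In lists this short, few calls also arise at the share over all genes. The part of these influences in the metallothionein levels was not tested. None of 11 copper handling genes was called, with a median log2 fold change of 0.06 beside 0.02 over all genes tested, and with the block 2 were higher and 1 lower. None of 12 glucocorticoid targets was called, with a median of 0.26, and with the block 2 were higher. Of 14 genes of the IL-6 and STAT3 axis, 1 rose, Il6 itself, with a median of 0.14; with the block 2 were higher and 3 lower. Il6 had 5.25, 5.96, 3.71 and 2.78 CPM in TdLN_CD40, 0.505, 0.759, 0.945 and 0.682 CPM in TdLN, and 0.855, 1.12, 0.611 and 0.501 CPM in Healthy_iLN, with a log2 fold change over TdLN of 2.61 ± 0.35 (adjusted p = 0.00179). Neither subunit of the zinc-binding calprotectin, S100a8 or S100a9, was called (adjusted p = 0.957 and 0.998).

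Against Healthy_iLN, TdLN_CD40 had 4 of the 14 IL-6 and STAT3 genes called higher, among them Socs3 and the transcription factor gene Cebpb (log2 fold change 1.98 ± 0.33, adjusted p = 0.00248). The glucocorticoid target Ddit4 was called higher (1.79 ± 0.38, adjusted p = 0.0127), and the copper transporter Slc31a2 was called lower (-0.73 ± 0.16, adjusted p = 0.0151). With the block the calls became 6 higher and 1 lower of the 14 IL-6 and STAT3 genes, 3 higher and 1 lower of the 12 glucocorticoid targets, and 4 higher and 1 lower of the 11 copper genes. Over all genes tested, 6.28% were called in TdLN_CD40 against Healthy_iLN, and 20.1% with the block. In lists this short, few calls also arise at these shares. Without Healthy_iLN replicate 3 the adjusted p of Ddit4 was 0.0570, and without Healthy_iLN replicate 3 or 4 that of Slc31a2 was 0.0553 and 0.0504. In TdLN against Healthy_iLN, Socs3, the feedback inhibitor of STAT3 signaling, was the single gene called in any of these metal and signaling lists without the block, with 72.4 ± 33.3 CPM in TdLN, 21.8 ± 3.96 CPM in Healthy_iLN and a log2 fold change of 1.74 ± 0.31 (adjusted p = 0.0448). That call was lost in 10 of 12 fits that left out 1 library, all but those without TdLN_CD40 replicate 3 or TdLN replicate 4, with an adjusted p of up to 0.239. It was also lost with library totals (0.0507), with only the 2 groups compared (0.0571) and with limma on log2(TPM + 1) and log2(TPM + 0.1) (0.502 and 0.506). With the block, 5 IL-6 and STAT3 genes, 1 NRF2 target, 1 calprotectin subunit (S100a8, adjusted p = 0.0340) and 2 zinc transporters were called higher in TdLN than in Healthy_iLN, and of the copper genes 1 was higher and 1 lower. Over all genes tested, 0.198% were called in TdLN against Healthy_iLN, and 6.3% with the block.

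Genes with the most similar profiles were ranked by Pearson's r of log2 CPM over the 12 libraries, among 10759 protein-coding genes. For Mt2 they were Tor1aip2 (r = 0.986), Mt1 (0.983), Gins3 (0.981), Gbp5 (0.967), Flrt3 (0.965), Il18bp (0.964), Palld (0.963) and Herc6 (0.963). For Mt1 they were Mt2 (0.983), Dock1 (0.978), Dnajb2 (0.975), Gbp5 (0.974) and Palld (0.973). Gbp5, an interferon-inducible GTPase gene, averaged 210 ± 19.5 CPM in TdLN_CD40, 76.2 ± 6.43 CPM in TdLN and 73.5 ± 19.2 CPM in Healthy_iLN. Mtf1 ranked 987 (r = 0.692) and Slc30a1 ranked 1024 (r = 0.683) for Mt2, and Slc39a14 had an r of -0.137. For Slc39a14 they were Saraf (0.966), Urb1 (0.944), BC029722 (0.944), Ext2 (0.936) and Btd (0.936), and Saraf averaged 109 ± 19.6 CPM in TdLN_CD40, 110 ± 18.7 CPM in TdLN and 115 ± 14.7 CPM in Healthy_iLN. These correlations share the libraries, their depth and their groups, and are descriptions with no test.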

How the data were processed

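Directional RNA libraries of CD11c cells were prepared from total RNA, per the labels' protocols. The authors' deposited table holds estimated counts and TPM for 132374 transcripts in 12 libraries, and the submitters' processing notes name Salmon and mm10; the file does not say which annotation was used. Estimated counts were summed to genes with GENCODE M21 (131974 transcripts matched, 400 left out with 0.116 to 0.147% of counts) and rounded, and TPM were summed likewise. Genes were filtered with filterByExpr (minimum count 10), scaled by TMM and tested with edgeR 4.0.16 (R 4.3.3) by the quasi-likelihood F test over all 23729 genes and all 12 libraries, with group as the only term, 9 residual degrees of freedom and a Benjamini-Hochberg adjusted p below 0.05. CPM are scaled by TMM, log2 CPM have a prior count of 2, and SE is the log2 fold change divided by the root of F. The biological coefficient of variation was 33.9% (20.7% with the block), and totals of 32626784 to 56320661 counts per library set the precision.

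Libraries of the same title prefix deviated together from their group means. The 12 same-prefix correlations over genes were 0.204 to 0.473, against -0.450 to 0.333 for the other 36. The main fit did not include this pairing, so SE and adjusted p are unpaired unless the block is named. Differences within prefixes and the alternative with the block used the pairing. Blocked values stand beside many of the counts and named genes whose calls the block changes, but not beside all of them. For TdLN_CD40 over TdLN, the block moved the SE from 0.162 to 0.098 for Mtf1 and from 0.155 to 0.083 for Slc30a1. The SE moved from 0.169 to 0.072 for Slc39a14, from 0.20 to 0.229 for Mt1 and from 0.253 to 0.303 for Mt2.

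Scaling moved the split of calls in TdLN_CD40 against TdLN: 69% of 635 calls were higher with TMM, 67.1% of 498 with RLE size factors and 53.9% of 920 with library totals. DESeq2 1.42.0, which changes the test as well, gave 58.5% of 1182. Against Healthy_iLN the split was 67.7% with TMM and 54.1% with library totals, which moved the median of all genes to -0.11 in log2.

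The 5 genes, the 18 gene lists and the rule for naming genes were chosen with earlier results of these data known. Named are the 5 genes, every transporter called and otherwise the 3 of each family with the highest TPM, up to 3 called genes of smallest p per other list and comparison, and the 8 (Mt2) or 5 (Mt1, Slc39a14) protein-coding genes of most similar profile above a mean log2 CPM of 2. Alternatives were DESeq2, other scaling, no filter, the block, only the groups compared, limma 3.58.1 on log2(TPM + 1) and log2(TPM + 0.1), and leaving out each library. The edgeR fit without the block was tested on simulated counts with fold changes set in TdLN. These counts had no prefix effect, so the simulation does not cover the pairing by prefix.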

Additional observations from a re-analysis of the deposited data

Results flagged for a closer look

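In 6 of 183 groups of 4 libraries, the highest or lowest library stood apart from the other 3 by Dixon's criterion. A rate of 1 in 20 would give about 9.2 in independent, unselected groups. Many of these genes were chosen from these data and all share the same 12 libraries, so nothing is read from this difference. The criterion was applied on the log scale, and the values below are in CPM. None of the 5 members was among the 6 groups. Of the genes with a similar profile or in the zinc lists, Tor1aip2 had 135 CPM in TdLN replicate 3, next to 120 CPM in the nearest TdLN library, and Slc30a9 had 42.4 CPM in Healthy_iLN replicate 2, next to 36.6 CPM. Txn1 had 219 CPM in TdLN_CD40 replicate 1, next to 173 CPM. Among the cell markers, Ccr2 had 267 CPM in TdLN replicate 2, below the nearest at 386 CPM, Cd3g had 9.80 CPM in Healthy_iLN replicate 1, below the nearest at 14.4 CPM, and Jchain had 87.9 CPM in TdLN replicate 3, above the nearest at 34.3 CPM. TdLN replicate 3 was also the TdLN library with the highest Mt2.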

How the results depend on the processing

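TdLN_CD40 lay above TdLN by 1.63 to 1.85 in log2 for Mt1, 2.46 to 2.90 for Mt2, 0.23 to 0.47 for Mtf1 and 0.23 to 0.47 for Slc30a1 over 20 alternatives. For Slc39a14 the same value was 0.24 and 0.26 with limma on log2(TPM + 1) and log2(TPM + 0.1), against -0.02. The set was chosen for the rise of Mt2 with the agonist, and the alternatives reuse the same libraries. These ranges are therefore descriptions of the dependence on processing. In TdLN against Healthy_iLN no member was called under any alternative that gave a p. There the log2 fold change of Mt1 was -0.056 with library totals, -0.0113 with log2(TPM + 1) and -0.0109 with log2(TPM + 0.1), and leaving out 1 library gave -0.0886 to 0.196 for Mt1, -0.371 to 0.0692 for Mt2 and -0.156 to 0.0426 for Slc39a14. The cause was not tested.

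In TdLN against Healthy_iLN the 47 calls became 393 with DESeq2, 75 with no count filter, 1495 with the replicate block, 25 with only these groups, 10 with each TPM setting and 0 to 101 without 1 library (0 without Healthy_iLN replicate 1, 3 or 4, 1 without Healthy_iLN replicate 2, 3 without TdLN replicate 3, 6 without TdLN replicate 1, 101 without TdLN replicate 4). In TdLN_CD40 against TdLN the 635 calls became 1182 with DESeq2, 3161 with the block, 289 and 266 with the TPM settings and 323 to 547 without 1 library. In TdLN_CD40 against Healthy_iLN the 1490 calls became 4781 with the block, 821 and 818 with the TPM settings and 829 to 1535 without 1 library. Zinc transporters called in TdLN_CD40 against TdLN were 4 with the block, 0 with either TPM setting and 0 to 1 without 1 library; in TdLN against Healthy_iLN they were 2 with the block. In TdLN against Healthy_iLN, the only comparison in which the 5 members were tested, the block changed none of their calls. Low counts limit Mt2 in the untreated groups, with 160 to 362 estimated counts per library.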
